A study of Symphysodon aequifasciata with 2 samples.

Results

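Transcripts of inhibitory synapses were described in the brain of the discus, an ornamental cichlid fish (Symphysodon aequifasciata), by comparing 1 library from a male with 1 library from a female. Both fish were 1 year old, came from the same breeding laboratory and were killed in water with 100 mg/L tricaine methanesulphonate (MS-222), an anaesthetic. The features described are the rows of the deposited table whose protein match names gamma-aminobutyric acid (GABA), a glycine receptor subunit, gephyrin, glutamate decarboxylase or the vesicular inhibitory amino acid transporter, in any case. This rule found 53 of 40209 features. Feature names follow the pattern of Trinity, an assembler that builds transcript clusters from reads without a genome, so 1 gene can be split over several features: 41 of the 53 carry a gene symbol taken from another species, and these use 26 different symbols.

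GABA and glycine are the fast inhibitory transmitters of the vertebrate nervous system. GABA is made from glutamate by glutamate decarboxylase, loaded into vesicles together with glycine by a single vesicular transporter, and cleared from the cleft by sodium- and chloride-dependent transporters. It opens GABA(A) receptors, chloride channels built from 5 subunits of several kinds, and activates GABA(B) receptors, which signal through G proteins. Gephyrin is the scaffold that holds glycine receptors and many GABA(A) receptors under the inhibitory terminal.

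There was 1 library per sex, so every difference below describes these libraries and no test between the sexes was possible. Sex cannot be told apart from the individual fish and the preparation of its library. The libraries are called male and female after their gender labels. The library labelled male is titled Obrain and that labelled female Tbrain. The initials are not explained in the labels and could be read as ovary and testis, against the gender labels, and every direction below would turn if the labels were exchanged. Values are in TPM, a relative abundance per base of feature length that can be compared between genes. The table holds features whose level was 6.01 TPM or more in either library. From the size of the steps between low values, the listed features were estimated to hold 2.61e+07 reads in the male brain and 2.41e+07 in the female. All 10 neuron markers examined were matched, led by snap25, a vesicle fusion gene, at 2201 TPM in the male brain and 2642 TPM in the female. The feature taken for rbfox3 was matched by protein name and carries the symbol rbfox1. In bulk brain tissue, fewer cells of a type and less RNA per cell cannot be told apart.

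Both brains expressed the full chain from GABA synthesis to the receptors, at similar levels. The ratio of a feature was taken as log2((female TPM + 0.5) / (male TPM + 0.5)), and a feature was called apart at 2-fold. By this measure 47 of the 53 features lay within 2-fold. Of the others, 1 (1.89%) was higher by 2-fold or more in the female brain, beside 5.02% of all features, and 5 (9.43%) were so in the male brain, beside 10.1% of all features. These shares are near or under the background of the table when features of all lengths are pooled. The log2 ratio was below 0 for 35 of the 53, or 66.0%, beside 56.2% of all features. Its median over the 53 was −0.18, against −0.07 over all features.

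The direction of the small differences was uneven. Of the 28 features of at least 1000 bases, 23 had a ratio below 0, that is, a higher level in the male library, against 57.9% of all 10726 features of that length. Their median log2 ratio was −0.21, against −0.05 for all features of that length. None of the 28 was 2-fold apart, where 0.373% of features of that length were so on the female side and 1.01% on the male side. With the ratios centred on the median of all features, 21 of the 28 remained below 0, against 46.2% of all features of that length. Centring adds 0.07 to each log2 ratio and turns the direction of 2 features, a GAD1 and a GLRB feature named below. Of the 25 shorter features 12 had a ratio below 0, beside 55.6% of all features under 1000 bases. All 6 features 2-fold apart were among these 25. The 1 on the female side (4%) stands beside 6.71% of all shorter features. The 5 on the male side (20%) stand beside 13.5%, a higher share than in all features of that length range, though on few features.

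**Figure D1:**
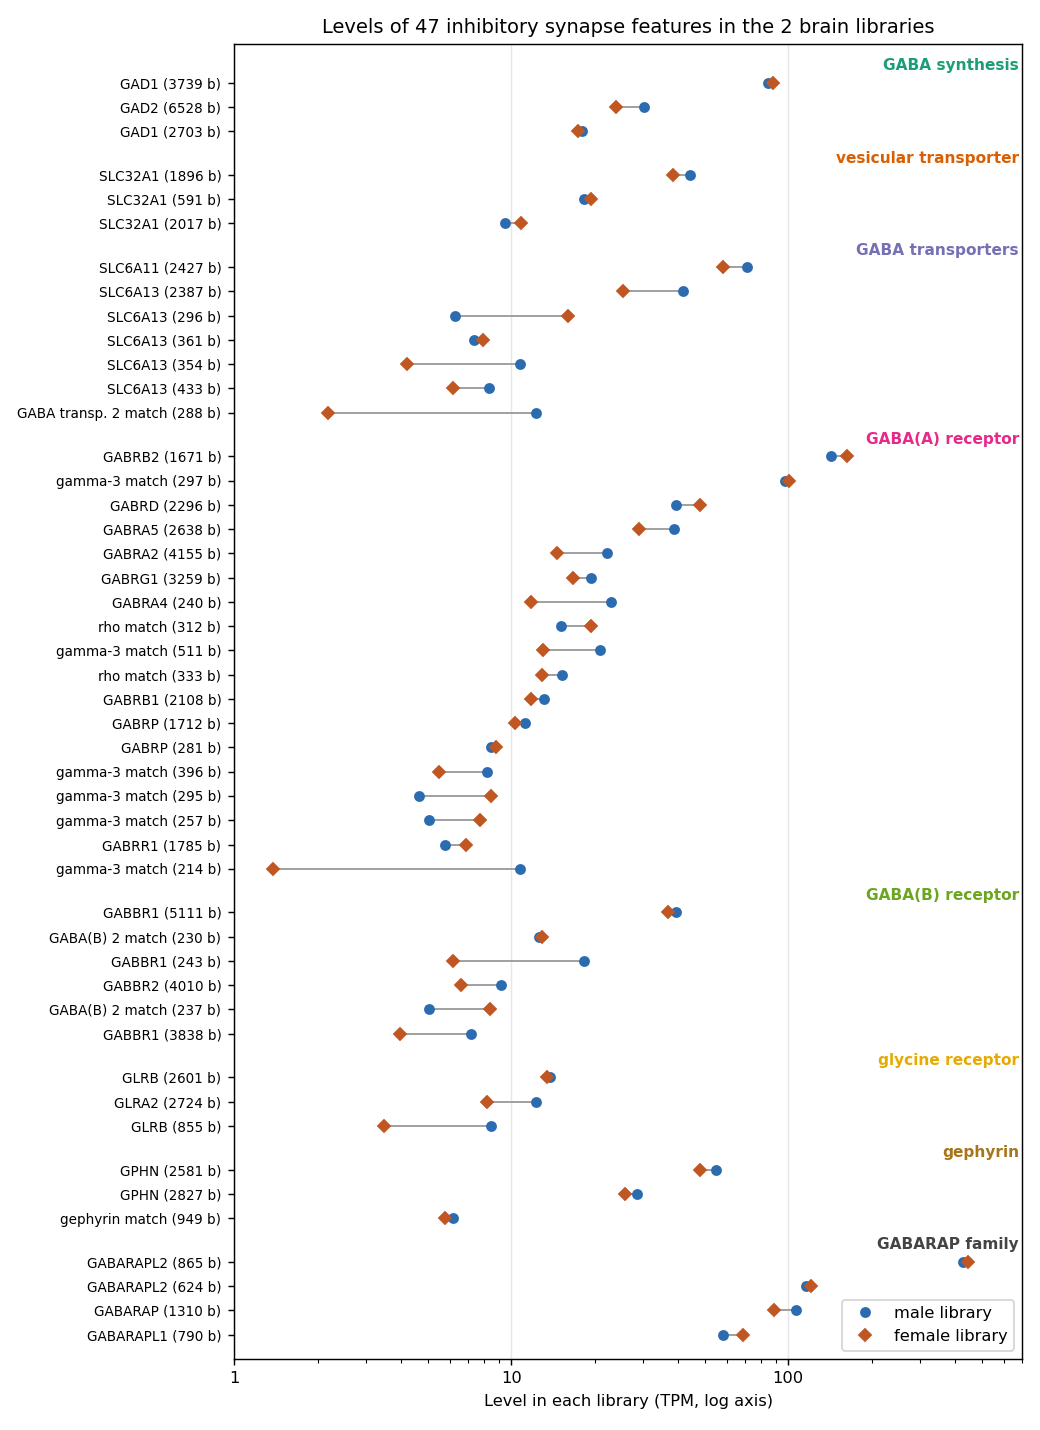
Level of 47 of the 53 features in the male (circle) and female (diamond) library in TPM, on a log axis, grouped by class and ordered by mean level, with feature length in bases (b). Long features such as GABRB2 (142 and 163 TPM) have markers close together, and the widest gaps belong to short features, such as the gamma-3 match of 214 bases (10.8 and 1.38 TPM).

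Glutamate decarboxylase transcripts, the measure of the capacity to make GABA that these data hold, were close to equal for GAD1 and lower in the female library for GAD2. GAD1 encodes the form that in mammals supplies most GABA of the cell body and GAD2 the form tied to vesicles in nerve endings. The more abundant GAD1 feature (TRINITY_DN13923_c3_g1, 3739 bases) measured 84.6 TPM in the male brain and 88.2 TPM in the female. The other GAD1 feature (TRINITY_DN13644_c4_g4, 2703 bases) measured 18.1 and 17.5 TPM, a difference that turns after centring. GAD2 measured 30.1 TPM in the male brain and 23.98 TPM in the female, a male-to-female fold of 1.25. The exact 95% interval of this fold was 1.21 to 1.30. It rests on about 7495 and 5559 reads and covers counting error alone, here and in all intervals below, so it says nothing of the spread between fish. The 3 features together summed to 133 TPM in the male brain and 130 TPM in the female.

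SLC32A1, which encodes the vesicular transporter for GABA and glycine, was represented by 3 features that did not share a direction. The most abundant, of 1896 bases, measured 44.1 TPM in the male brain and 38.2 TPM in the female. The feature of 2017 bases went the other way, at 9.5 and 10.9 TPM. The feature of 591 bases measured 18.4 and 19.4 TPM. The long features were thus 1.15-fold apart in opposite directions, and the sums of the 3 were 72.0 and 68.5 TPM.

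Transcripts of the GABA transporters of the cell membrane were lower in the female library in all 4 features of at least 1000 bases. SLC6A11 encodes GABA transporter 3, which in mammals is a transporter mainly of astrocytes. Its feature measured 70.7 TPM in the male brain and 57.98 TPM in the female and was the most abundant of the class.

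The widest difference among the long transporter features was that of SLC6A13, GABA transporter 2, which in mammals is found in the meninges and the liver as well. Its feature of 2387 bases (TRINITY_DN12193_c2_g8) measured 41.7 TPM in the male brain and 25.3 TPM in the female, or about 3528 and 1992 reads. The male-to-female fold was 1.64, with a counting interval of 1.56 to 1.74, and 3.26% of all features of at least 1000 bases had a lower ratio. A fragment of 288 bases with the same assembly stem and the same protein match measured 12.2 and 2.18 TPM. It rests on 25 and 4 reads, which gives a fold of 5.61 and an interval of 1.94 to 22.2. The other 4 fragments matched to this transporter went both ways. One of 296 bases measured 6.28 TPM in the male brain and 16.0 TPM in the female, over 14 and 32 reads, and was the 1 feature of the 53 that passed 2-fold on the female side. Another of the same stem, of 354 bases, measured 10.8 and 4.2 TPM over 43 and 15 reads. The last fragments, of 361 and 433 bases, measured 7.32 and 8.32 TPM in the male brain and 7.91 and 6.18 TPM in the female. The 10 transporter features summed to 286 TPM in the male brain and 227 TPM in the female, a fold of 1.26, but a sum over fragments counts a gene more than once.

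Some alpha subunits of the GABA(A) receptor form the benzodiazepine site with a neighbouring gamma subunit. All 4 alpha features were lower in the female library. GABRA5, the most abundant of them, measured 38.7 TPM in the male brain and 29.0 TPM in the female. GABRA2 measured 22.2 TPM in the male brain and 14.7 TPM in the female. Their male-to-female folds were 1.33 and 1.51, and the counting intervals, 1.27 to 1.40 and 1.43 to 1.60, lay above 1. The GABRA2 ratio had 5.53% of all features of at least 1000 bases below it, so neither fold is extreme for this table. The last alpha feature is a fragment of 240 bases that carries the symbol GABRA4 and a protein match to alpha-6, so which subunit it belongs to is uncertain. It measured 22.9 and 11.7 TPM over 28 and 13 reads, with an interval of the fold, 0.977 to 4.10, that held 1.

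The beta subunits, which together with alpha form the GABA site, did not move together. GABRB2 (TRINITY_DN11838_c0_g4, 1671 bases) was the most abundant receptor subunit among the 53 features, at 142 TPM in the male brain and 163 TPM in the female. Its female-to-male fold was 1.15, with a counting interval of 1.11 to 1.18 over about 8010 and 8516 reads. GABRB1 measured 13.2 and 11.8 TPM, lower in the female library, with a counting interval of the male-to-female fold of 1.02 to 1.23.

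GABRG1, a gamma subunit, measured 19.4 TPM in the male brain and 16.8 TPM in the female. The male-to-female fold was 1.16, with a counting interval of 1.09 to 1.23.

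Against these stood GABRD, the delta subunit, which in mammals takes the place of gamma in receptors outside the synapse, among them those of cerebellar granule cells. It measured 39.5 TPM in the male brain and 47.9 TPM in the female. The female-to-male fold of 1.21 had a counting interval of 1.16 to 1.27, and 89.3% of all features of at least 1000 bases had a lower ratio. Among the remaining kinds, GABRR1, a rho subunit known from retinal bipolar cells of mammals, measured 5.75 and 6.89 TPM. A fragment of 312 bases with the same stem measured 15.1 and 19.4 TPM, and the rho-2 fragment of 333 bases 15.3 and 12.96 TPM. The rho features thus went both ways. Of 4 listed genes of retina and pineal 1 was matched, rhodopsin (rho), at 11.7 and 12.2 TPM, and the part of such tissue in the rho subunit levels was not tested. GABRP, the pi subunit, measured 11.3 and 10.3 TPM in its feature of 1712 bases and 8.47 and 8.83 TPM in a fragment of 281 bases.

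The composition of the summed GABA(A) subunit level therefore differed between the libraries more than the sum did. The 13 subunit features with a match in Swiss-Prot, a curated protein database, summed to 392 TPM in the male brain and 373 TPM in the female. Alpha subunits made up 29.5% of this sum in the male brain and 21.4% in the female. The alpha sum was 115 and 79.6 TPM. It includes the fragment of 240 bases whose subunit is uncertain, at 22.9 and 11.7 TPM on 28 and 13 reads. Part of the difference in alpha share therefore rests on that fragment. Beta subunits made up 41.7% and 48.5%, of which GABRB2 alone was 36.4% and 43.8%. Delta took 10.1% and 12.9%, and all other kinds together 18.7% and 17.3%. The alpha share was thus lower, and the shares of delta and GABRB2 higher, in the same female library. These are parts of the same sum, so a higher GABRB2 level by itself lowers the alpha share. Shares within a library do not depend on how the libraries are scaled to each other. Subunits under the limit of the table were not analysed here.

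**Figure D2:**
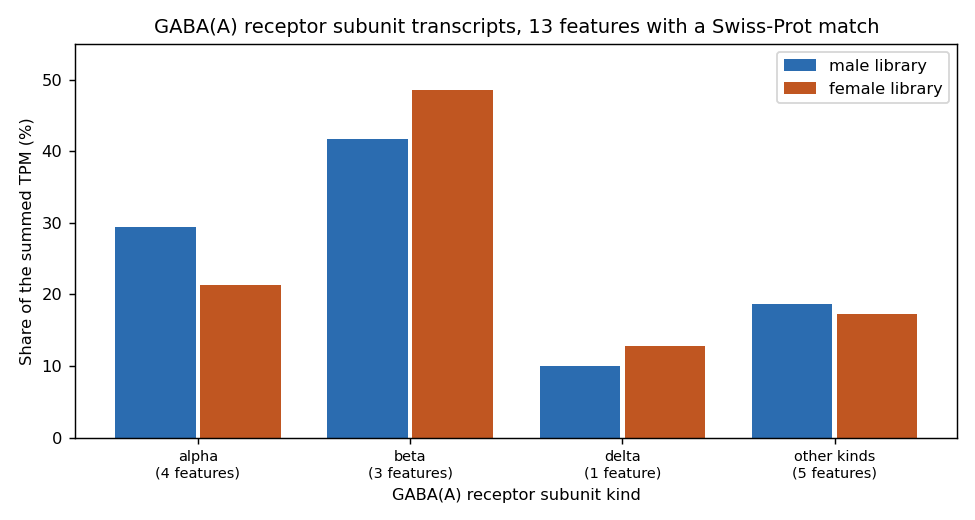
Share of each kind of GABA(A) receptor subunit in the summed TPM of 13 features, in percent, for the male (left bar) and female (right bar) library, with 1 library per bar. The alpha share is 29.5% in the male brain and 21.4% in the female and the beta share 41.7% and 48.5%. The alpha share includes a fragment of 240 bases whose subunit is uncertain.

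Listed markers of cerebellar cells were higher in the female library, as were GABRD and GABRB2. All 4 alpha features were lower there, among them the fragment matched to alpha-6. Of 7 genes listed for Purkinje and granule cells 5 were matched, and all 5 were higher in the female library. For comparison, 17571 of all 40209 features had a ratio above 0. The 5 genes had a median log2 ratio of 0.38 and a summed level of 424 TPM in the male brain and 548 TPM in the female. The transcription factor genes zic1 and neurod1 measured 147 and 80.8 TPM in the male brain and 165 and 105 TPM in the female, and cbln1, a secreted organiser of granule cell synapses, 128 and 164 TPM. Parvalbumin (pvalb7) measured 52.2 and 85.1 TPM and rorb 16.6 and 29.2 TPM. The pvalb7 feature also stands on the list of inhibitory neurons. Whether the 5 genes are specific to cerebellar cells in this brain was not tested. The listed markers pcp2 and calb1 were not matched, and none of the 5 was at 0. Genes of the myelin list were likewise higher in the female library in 5 of 5, with a median of 0.36 and a sum of 855 and 1080.5 TPM. Of these, mbp, mpz and olig2 were matched by protein name, and the olig2 feature carries the symbol OLIG3. Of 5 radial glia genes 3 were higher and 2 lower. Their sum was 2767 and 3512 TPM, of which fabp7 alone held 1652 and 2443 TPM. The part of cell composition in the subunit differences was not tested.

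A further 6 features matched to subunit gamma-3 need separate mention, because their identity is doubtful. All 6 have the same protein match from the Nile tilapia, but each has its own assembly stem, and none has a gene symbol, a Swiss-Prot match, a protein domain or a KEGG orthology entry. Of 16932 different protein matches in the table, 50, or 0.295%, were found on 6 or more stems. The features are 214 to 511 bases long. The most abundant, of 297 bases, measured 97.6 TPM in the male brain and 101 TPM in the female, above every named subunit except GABRB2. The others were low and had no common direction. That of 511 bases measured 20.9 and 13.1 TPM, that of 396 bases 8.2 and 5.48 TPM, that of 295 bases 4.63 and 8.46 TPM, and that of 257 bases 5.05 and 7.74 TPM. The smallest feature, of 214 bases, measured 10.8 and 1.38 TPM, the lowest ratio of the 53 features, on about 11 and 1 reads. The step of 1 read was found at the length of 5 of the 6, and none of these 5 had a whole number of reads in both libraries, within 0.1 of a read. Of the other 12 features whose read step was found at their length, 11 had whole numbers in both. The exception, the SLC6A13 fragment of 433 bases, rests on about 59 and 39 reads. The check was gauged on values under 30 reads, since a small error of the step adds up over many reads. It therefore cannot decide for the feature of 297 bases, at about 220 and 204 reads, and is weak for that of 396 bases, at about 46 and 27. The 6 features held 25.9% of the GABA(A) sum in the male brain and 25.3% in the female when they were counted in, so the composition above leaves them out.

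Transcripts of the GABA(B) receptor, a pair of subunits of which the first binds GABA and the second couples to the G protein, were lower in the female library in all 3 features of at least 1000 bases. The main GABBR1 feature, of 5111 bases, measured 39.2 TPM in the male brain and 36.7 TPM in the female, a fold of 1.07. A second GABBR1 feature of the same stem (TRINITY_DN13649_c0_g4, 3838 bases) measured 7.16 and 3.98 TPM, or about 1019 and 527 reads. Its male-to-female fold of 1.80, with an interval of 1.62 to 2.00, was the largest among the 28 long features. Of all features of that length, 2.42% had a lower ratio. The female level of this feature lay under the 6.01 TPM limit, so it was listed for its male level, and the interval does not allow for this. The smallest of the 3 had the widest ratio. A fragment of 243 bases of the same stem measured 18.2 and 6.14 TPM over 23 and 7 reads, an interval of 1.23 to 8.20. GABBR2 measured 9.2 and 6.57 TPM over 4010 bases, a fold of 1.40 with an interval of 1.29 to 1.53. Fragments of 230 and 237 bases matched to the same subunit measured 12.6 and 5.05 TPM in the male brain and 12.9 and 8.36 TPM in the female, on at most 14 reads each. The long features thus differed more for the minor GABBR1 transcript and GABBR2 than for the main GABBR1 transcript.

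Glycine receptor transcripts were less abundant than those of the GABA(A) receptor, and all 3 features were lower in the female library before centring. GLRA2, the alpha-2 subunit, which predominates in the embryonic mammalian brain, measured 12.3 TPM in the male brain and 8.19 TPM in the female. The fold was 1.51 and its interval 1.37 to 1.65. GLRB, the beta subunit that binds gephyrin, measured 13.9 and 13.4 TPM in its feature of 2601 bases, with an interval of 0.953 to 1.12 that held 1 and a direction that turns after centring. A second GLRB feature, of 855 bases (TRINITY_DN12139_c1_g1), measured 8.42 and 3.47 TPM over about 200 and 76 reads. Its fold of 2.43, with an interval of 1.86 to 3.21, rested on the most reads of the 6 features 2-fold apart. Its female level lay under the 6.01 TPM limit, so it was listed for its male level, and the interval does not allow for this. The GLRB features have different assembly stems.

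Gephyrin was nearly level. The main GPHN feature, of 2581 bases, measured 54.7 TPM in the male brain and 48.1 TPM in the female. The other, of 2827 bases, measured 28.3 and 25.7 TPM, and a feature of 949 bases with no gene symbol 6.14 and 5.79 TPM. The folds of the 2 long features were 1.14 and 1.10. The class median of −0.14 became −0.06 after centring on all features.

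The GABARAP family held the most abundant transcripts that the rule found. These proteins were named for binding the GABA(A) receptor and are ubiquitin-like proteins of the autophagy machinery, present in most cells, so their levels are not read here as levels of synapses. GABARAPL2 measured 428 TPM in the male brain and 446 TPM in the female in its feature of 865 bases and 115 and 121 TPM in that of 624 bases. GABARAP measured 107 and 88.9 TPM, and GABARAPL1 58.1 and 68.7 TPM. All 4 lay within 1.20-fold, with directions on both sides.

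**Figure D3:**
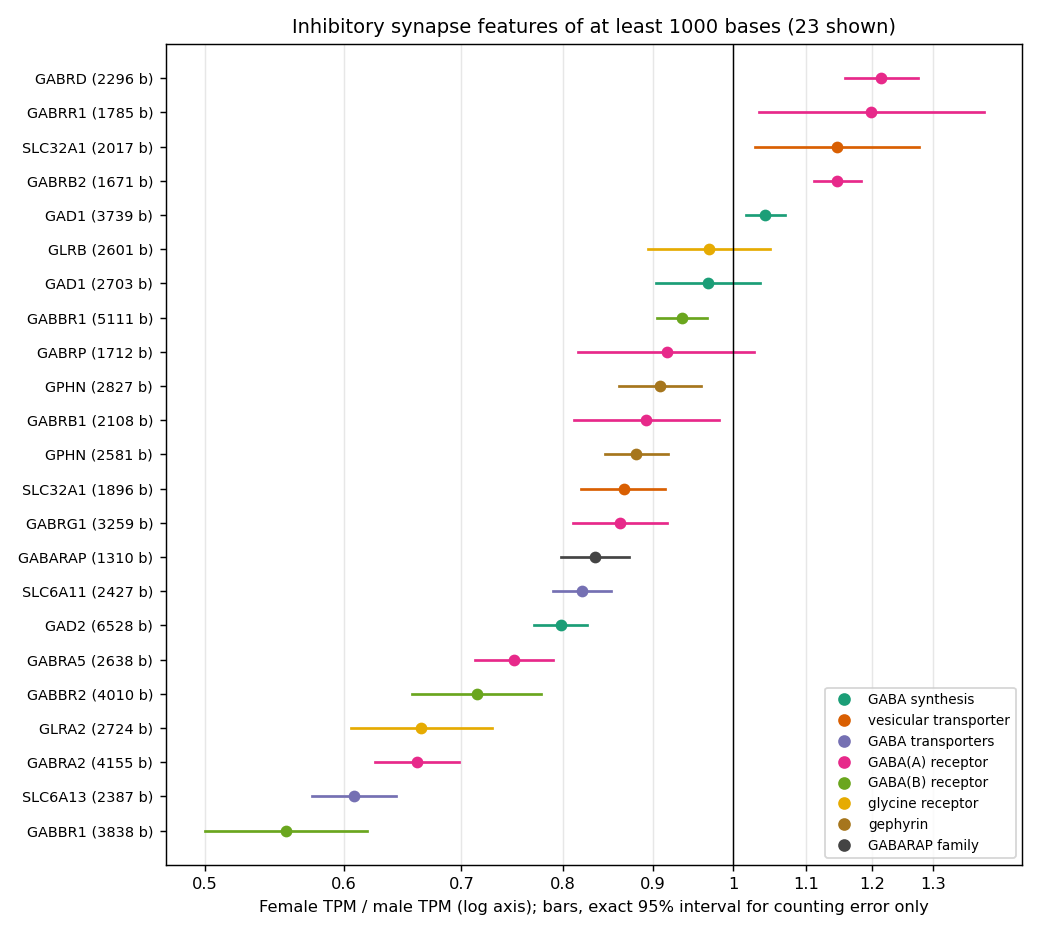
Female-to-male fold of TPM for 23 of the 28 features of at least 1000 bases on a log axis, ordered by fold and coloured by class, with exact 95% intervals for counting error alone. Points run from 0.556 for the GABBR1 feature of 3838 bases to 1.21 for GABRD, and 18 of the 23 shown lie below 1.

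The widest differences were those of short features. The 6 features at least 2-fold apart had lengths of 214 to 855 bases and between 1 and 200 reads in each library. Of these, 4 fell under the 6.01 TPM limit in the lower library, so they were listed for the higher one. Of all 53 features, 12 did so. Listing by the higher library can widen such ratios, and the counting intervals do not allow for it. The 28 long features rested on 335 reads or more per library. Among these, the counting interval left out 1 for 25, of which 20 were higher in the male brain and 5 in the female. The 5 were GABRD, GABRB2, GABRR1, the larger GAD1 feature and the SLC32A1 feature of 2017 bases. For most long features counting error was therefore smaller than the difference, while the spread between fish of one sex is unknown. How many of all features of at least 1000 bases have such an interval is not given here, and the intervals were not centred. A ratio below 0 was found for 57.9% of all features of that length. The count of 25 is therefore not read as particular to these genes.

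**Figure D4:**
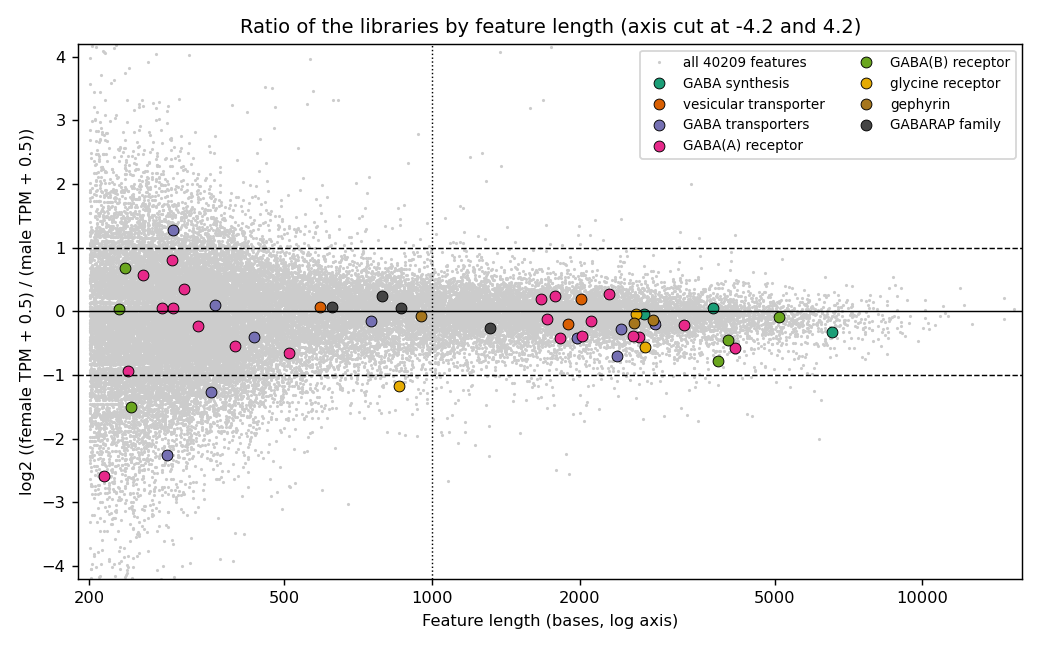
Log2 ratio of female over male, with 0.5 TPM added, against feature length in bases on a log axis, for all 40209 features (grey; those beyond ±4.2 are not shown) and the 53 inhibitory synapse features (coloured by class). Dashed lines mark 2-fold and the dotted line 1000 bases; none of the 28 coloured points to the right of it passes a dashed line, and 6 to the left of it do.

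Genes listed as related to inhibitory transmission that the rule did not name were read from a list of 36, of which 27 were matched. The list is broader than the synapse and includes metabolic enzymes such as gldc and shmt2. The feature taken for shisa7 was matched by protein name and carries the symbol Shisa6. Of these, 1 passed 2-fold on each side, 18 had a ratio below 0, and the median was −0.08. Of all features, 5.02% passed 2-fold on the female side and 10.1% on the male side. Among features of at least 1000 bases, to which many of the matched features belong, these shares were 0.373% and 1.01%. A ratio below 0 was found for 56.2% of all features, a lower share than 18 of 27. The median of all features was −0.07, near that of the list. The 4 most abundant were dynll2 and pfn2, partners of gephyrin, abat, the enzyme that degrades GABA, and glrx, a glutaredoxin. They measured 334, 73.9, 77.2 and 34.1 TPM in the male brain and 316, 60.2, 67.0 and 46.2 TPM in the female. The chloride transporter genes slc12a5, whose product lowers chloride in mature neurons, and slc12a2, whose product raises it, differed in direction. The former measured 25.8 and 19.4 TPM, and the latter 32.3 and 41.9 TPM.

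The widest ratios of that list belonged to slc6a5 and dmd. The neuronal glycine transporter gene slc6a5 measured 7.08 TPM in the male brain and 2.34 TPM in the female over 47 and 14 reads, a fold of 3.03 with an interval of 1.64 to 5.97. Dystrophin (dmd), which in the mammalian cerebellum sits at GABA synapses of Purkinje cells, measured 8.4 and 18.8 TPM over about 660 and 1369 reads, 2.23-fold higher in the female library. Its feature has 2232 bases, a length range in which 0.373% of all features passed 2-fold on that side. The slc6a5 feature has 423 bases, and 13.5% of features under 1000 bases passed 2-fold on the male side. The glial glycine transporter gene slc6a9 came next by size, at 6.07 and 4.26 TPM and a log2 ratio of −0.46, followed by glrx at 0.43.

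Transcription factors and peptides that mark inhibitory neurons gave no common direction: of 15 listed, 13 were matched, 8 with a ratio below 0 and 5 above. Their median was −0.11, against −0.07 for all features, of which 56.2% had a ratio below 0. Their summed level was 637 TPM in the male brain and 589 TPM in the female. Of those above 0, lhx6 and lhx1 are fragments of 203 and 214 bases on at most 20 reads per library. Their counting intervals held 1, as did those of sst, calb2 and pax2 below 0. The pvalb7 feature, above 0, is also counted among the cerebellar markers. The forebrain interneuron genes dlx1, dlx2 (matched by protein name) and dlx5 measured 12.8, 8.84 and 7.75 TPM in the male brain and 10.6, 3.59 and 5.91 TPM in the female. The feature taken for dlx2, of 449 bases, carries the symbol dll4 and rests on 68 and 25 reads. The interneuron gene arx measured 11.5 and 0.8 TPM on 32 and 2 reads. On the other side, the feature matched by protein name to ptf1a, a factor that directs hindbrain precursors to an inhibitory fate, measured 0.58 and 10.3 TPM. It has 1682 bases, rests on about 33 and 541 reads and carries the symbol hlh-13, so its identity is less sure. The general neuron list had a median of −0.01, with 5 genes on each side, and the glutamatergic neuron list one of −0.02. Single genes spread more widely. Ratios of the neuron list ran from −1.01 for elavl3, at 52.7 and 25.9 TPM, to 0.26 for snap25. Of that list only elavl3, of 1294 bases, passed 2-fold, as did 1.01% of all features of at least 1000 bases on the male side. Ratios of the glutamatergic list ran from −0.86 for tbr1, at 13.7 and 7.32 TPM, to 0.52 for neurod6.

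**Figure D5:**
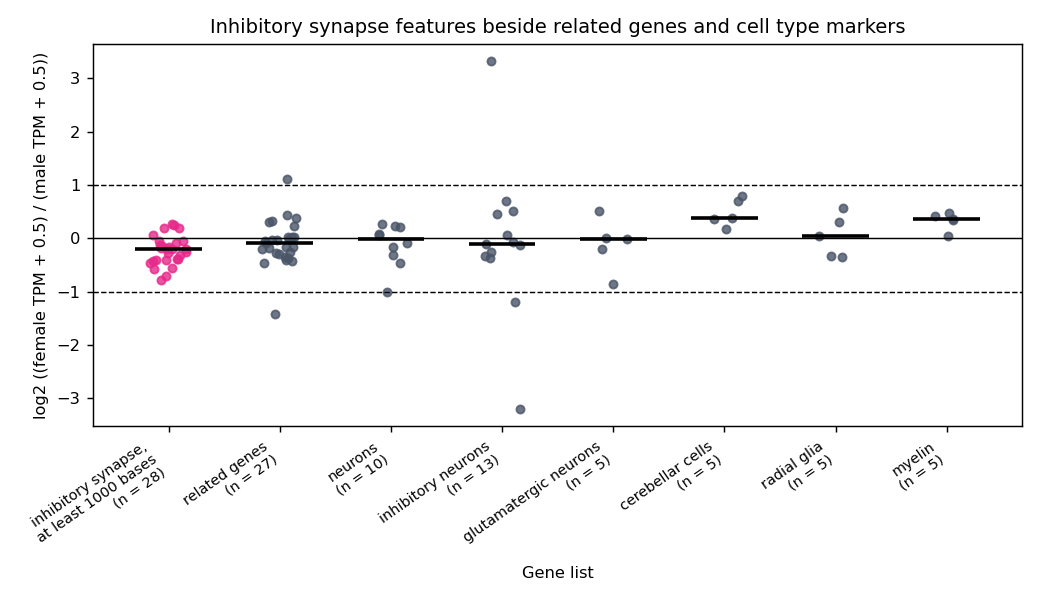
Log2 ratio of female over male, with 0.5 TPM added, for the 28 long inhibitory synapse features and for genes of the related list and 6 cell type lists, 1 point per gene or feature with the median as a bar. The medians run from −0.21 for the inhibitory synapse features to 0.38 for the cerebellar markers.

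Features of the excitatory synapse are given for comparison. Of 80 features with glutamate receptor in their protein match, 58 (72.5%) had a ratio below 0, beside 56.2% of all features, and the median was −0.30. On the male side 10 (12.5%) passed 2-fold, beside 10.1% of all features, and on the female side 0. Among the 39 of at least 1000 bases the median was −0.21 and 29 were below 0, beside −0.21 and 23 of 28 for the inhibitory features and 57.9% of all features of that length. After centring 25 of the 39 and 21 of the 28 were below 0. With 1 library per sex no test of a difference between these groups was possible.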

How the data were processed

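Poly(A) RNA of 2 brains was sequenced in paired ends, per the labels' protocols. Per the submitters' processing notes, cutadapt, FastQC, Salmon and edgeR were used; versions and roles are not given in the sources used here. The authors' deposited table does not name its unit: TPM was inferred from columns that sum to 937828 and 943014 and from the use of Salmon. Feature length and names were taken from the same table. No genome or sequence was used.

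Features were chosen by protein name and put into 8 classes. Ratios used a pseudocount of 0.5 TPM, which understates the change of low features; folds are ratios of TPM without it. Named were, per class, the 3 most abundant features and the 2 widest ratios, every feature at least 2-fold apart or listed at 0 (none was), and the 5 widest ratios among long features; other features were added for completeness. Some features this rule covers (6 in all, counted in the totals) are not reported here by name. Members and lists were chosen with earlier results of these data known. List genes were matched by symbol, or else by protein name, and represented by their most abundant feature.

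For features of one length, low values were whole multiples of one step, the worth of 1 read. It was 1.11 TPM (male) and 1.23 TPM (female) at 201 bases. Of values under 30 reads, 95.5% and 95.2% lay within 0.1 of a whole number. Beyond 443 (male) and 482 bases (female) the step was extrapolated by a line fitted from 380 bases, so reads of longer features are estimates. Folds have exact (Clopper-Pearson) 95% intervals from these reads, which cover counting error only. Steps and calls were tested on simulated data. The versions were Matplotlib 3.10.9, SciPy 1.17.1, pandas 2.3.3, NumPy 2.4.6 and Python 3.11.15.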

Additional observations from a re-analysis of the deposited data

How the results depend on the processing

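The median ratio of the 53 features, −0.18, ran from −0.21 over features of at least 1000 bases to −0.11 after centring under the 8 alternatives. Its 95% order-statistic interval was −0.38 to −0.04. This interval treats features as independent, though several share a gene, and is wide beside these shifts, so staying within it is weak evidence of stability. The count past 2-fold on the female side fell from 1 to 0 over features of at least 1000 bases and with 1 feature per gene. In the latter setting each protein match without a gene symbol counted as a gene of its own, so 33 features were kept. Some fragments thus stand beside the named gene they match. The count on the male side fell from 5 to 0 and 1 in the same settings. Over features with a Swiss-Prot match, an alternative added after the data were seen, it fell to 3. Only the length setting leaves out all short features. The 1 left with 1 feature per gene is the transporter fragment of 288 bases. The 3 left with a Swiss-Prot match have 243, 354 and 855 bases. Class medians turned sign for GABA synthesis (−0.05, and 0.03 after centring), the vesicular transporter (0.08, −0.0088 over features of at least 1000 bases and −0.21 with 1 feature per gene) and the GABARAP family (0.06, and −0.26 for its single long feature). The other 5 classes kept theirs, with gephyrin at −0.0619 after centring. Female-to-male folds of the class sums, as reported, were 0.977 for GABA synthesis, 0.951 for the vesicular transporter, 0.795 for GABA transporters, 0.952 for GABA(A), 0.816 for GABA(B), 0.725 for glycine receptors, 0.894 for gephyrin and 1.02 for the GABARAP family. After centring they were 1.03, 1.00, 0.837, 1.00, 0.859, 0.763, 0.941 and 1.08, so synthesis, the vesicular transporter and GABA(A) have no firm direction. Over features of at least 1000 bases they were 0.773 for transporters, 0.977 for GABA(A), 0.850 for GABA(B), 0.826 for glycine receptors (the same at a minimum of 10 TPM and with 1 feature per gene) and 0.834 for the GABARAP family, a single feature that turns the direction. With 1 feature per gene, as defined above, they were 0.738 for transporters, 0.972 for GABA(A), 0.976 for GABA(B) and 0.866 for the vesicular transporter. The transporter value still counts the fragment of 288 bases beside SLC6A13. That of GABA(B) still counts the fragments of 230 and 237 bases beside GABBR2. With a Swiss-Prot match they were 0.822 for transporters and 0.723 for GABA(B). These sums depend on which fragments are counted. No paired analysis was possible because there is 1 library per sex, and for the same reason no library could be left out. Depth limits the short features, of which 16 of 25 rest on under 50 reads in the lower library.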

Other observations

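Another text column of the table, the KEGG orthology description, names a GABA receptor or its modulator for 10 features outside the rule. The rule did not take these features because their protein match lacks its search words. For 7 of them the description is a GABA(A) receptor subunit or the GABA(B) receptor, while the protein match is the chromatin proteins AF-17 (MLLT6), AF-10 (MLLT10) and PHF14, the chromosome segregation protein BOD1, or, in 3 features, a piggyBac transposable element. The most abundant of these transposon features, of 877 bases, was listed at 251 (male) and 227 TPM (female), more than any subunit named above, so a count by orthology description would put it first among GABA(B) receptor transcripts. The 3 others are described as diazepam-binding inhibitor, an acyl-CoA-binding protein whose peptides bind the GABA(A) receptor in mammals. The feature with the symbol DBI was listed at 55.8 and 66.3 TPM, one with a protein match to a peroxisomal carnitine acyltransferase 378 and 465 TPM, and acbd6 10.96 and 8.83 TPM. These features were chosen after their values were seen.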
